A study of Mus musculus with 6 samples.

Results

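Antisense circRNAs are circles assigned to the strand opposite an annotated gene, and intergenic circRNAs are circles whose ends lie outside the gene models to which the array's circRNAs were assigned. Both kinds were picked by the circRNA type that the study's annotation table gives for each array probe. The table was held for 1734 circRNAs, and 68 of these were members, 29 antisense and 39 intergenic. The others were 1342 exonic, 229 sense overlapping and 94 intronic circRNAs and a single circle of another type. The arrays tested 13420 circRNAs in all, and the type of those outside the 1734 was not held.

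Microglia, the macrophages of the brain, were isolated from the cortex of 3 WT and 3 APP/PS1 mice, all male and 6 months old. WT mice were C57BL/6J, and APP/PS1 mice carried a chimeric mouse/human APP695 transgene with the Swedish mutation and a mutant human PS1 transgene (APPswe and PSEN1dE9), a pair made to drive amyloid deposition. Cells were captured on magnetic beads with an antibody to CD11b, a surface protein of myeloid cells. Their RNA was digested with RNase R to deplete linear RNA, copied with random primers and hybridized with Cy3 to a mouse circRNA array, with 1 array for each sample and 1 probe for each circRNA. The signals below are background-corrected, quantile-normalized log2 intensities, and a difference is the APP/PS1 mean minus the WT mean on that scale. No member is measured by more than 1 spot, and each genotype has 3 arrays, so their number limits the precision.

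Most circRNAs form when a downstream splice donor is joined back to an upstream splice acceptor of the same transcript, which closes the exons between them into a ring without free ends. A circle called antisense or intergenic needs a transcript that is not in the gene models used, such as a natural antisense RNA, an unannotated long noncoding RNA, or an extension of a neighbouring gene.

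Sequences of the full circles were not available, so sequence is shown only for 2 places where the reference tables cover a member, both taken from RefSeq on GRCm38.p6. The first is the locus of Cop1, a ubiquitin ligase listed under its older symbol Rfwd2. A pair of antisense members there, mmu_circRNA_18959 at chr1:159340284-159340423 and mmu_circRNA_001878 at chr1:159340283-159340422, both on the minus strand, have the same span of 140 nt and differ by 1 nt at each end. They lie across Scarna3a, a small Cajal body RNA, and across the hairpin of Mir1843b, which is encoded on the plus strand. The first circle covers 66 of the 66 bases of the hairpin and the second covers 65, on the opposite strand. The hairpin is shown with its mature parts in capitals, then its complement on the strand of the circles with the bases opposite those parts in capitals, then both mature miRNAs with the seed, bases 2 to 8, in capitals.
hairpin on the plus strand, chr1:159340358-159340423: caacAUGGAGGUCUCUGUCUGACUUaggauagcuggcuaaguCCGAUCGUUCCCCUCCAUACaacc
complement on the minus strand, chr1:159340358-159340423: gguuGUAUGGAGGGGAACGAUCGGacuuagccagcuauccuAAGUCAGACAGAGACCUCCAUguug
mmu-miR-1843b-5p, plus strand, chr1:159340362-159340382: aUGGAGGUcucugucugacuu
mmu-miR-1843b-3p, plus strand, chr1:159340400-159340419: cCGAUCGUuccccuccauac
Over the hairpin, the strand to which the circles are assigned reads the complements of the seeds; the rest of each circle was not read.

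The second place is a transcript start inside Gm30665, a long noncoding RNA gene on the minus strand that reaches from 94081266 to 94109585 on chromosome 15. The intergenic mmu_circRNA_28992, chr15:94106515-94108087 on the same strand, begins 4 bases before this transcript start, which lies inside the gene and not at its outer end. The bases inside the circle are in capitals, after the 40 bases that precede it.
transcript start inside Gm30665, minus strand, chr15:94108034-94108127: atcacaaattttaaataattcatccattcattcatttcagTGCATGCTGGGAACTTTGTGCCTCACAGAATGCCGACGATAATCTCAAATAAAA
The last bases before the circle are AG, the letters that end an intron at a splice acceptor. Of the 32851 start windows in the RefSeq table, 7.61% have AG at the same place, searched on the strand of the gene only. The signal of mmu_circRNA_28992 was 4.64, 4.63 and 4.60 in WT samples and 4.40, 4.78 and 4.71 in APP/PS1 samples, so the groups overlapped. This member and 6 others named below were chosen after their values were seen (mmu_circRNA_19500, mmu_circRNA_31809, mmu_circRNA_32851, mmu_circRNA_33133, mmu_circRNA_38639 and mmu_circRNA_42889).

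The classes had different spans. The length that the table gives equals the distance between the ends on the genome in 29 of 29 antisense and 39 of 39 intergenic members, so it counts any intron inside the circle; for exonic circRNAs this was so in 59 of 1342. The median span was 151 nt for antisense members, with a range from 60 to 66051 nt, and 11677 nt for intergenic members, with a range from 294 to 86680 nt. Of the antisense members, 16 spanned under 200 nt, 6 spanned 200 nt or more but under 5000 nt and 7 spanned 5000 nt or more. No intergenic member spanned under 200 nt, while 13 spanned 200 nt or more but under 5000 nt and 26 spanned 5000 nt or more.

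Spans also differed by the catalogue from which a circle had entered the array, and within a catalogue by class. The table draws on circBase and on a pair of published catalogues, called A and B here. Antisense members came from circBase in 11 cases, from catalogue A in 12 and from catalogue B in 6, with median spans of 95, 5373 and 123.5 nt. Intergenic members came from catalogue A in 37 cases with a median span of 12742 nt, and from catalogue B in 2, at 2551 and 7546 nt, and none came from circBase. Whether the difference in span belongs to the classes or to how each catalogue was made was not tested.

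**Figure D1:**
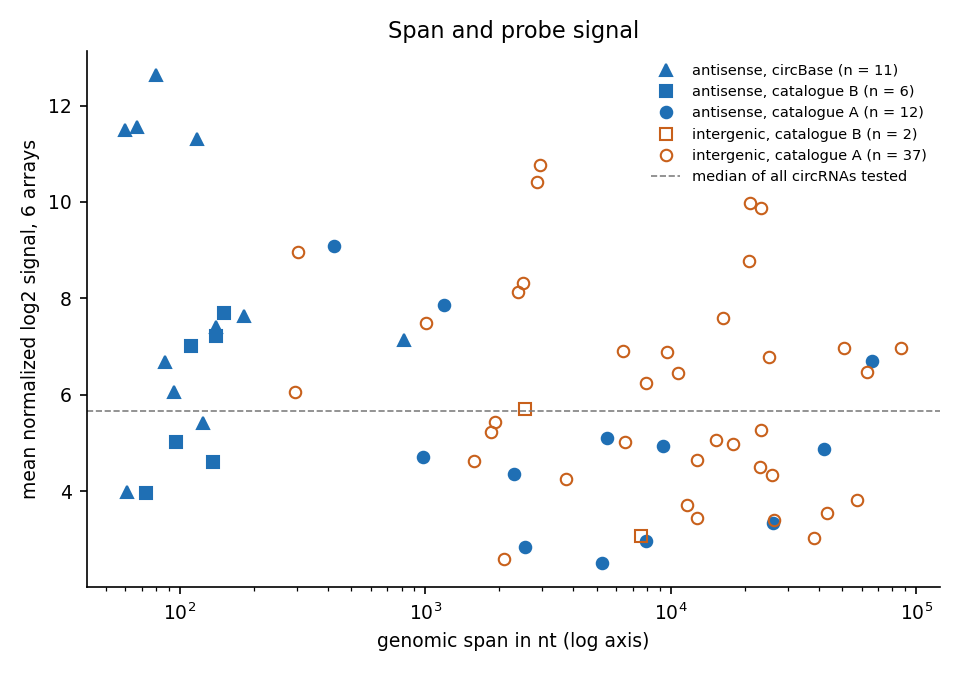
Genomic span in nt on a log axis against the mean normalized log2 signal over 6 arrays, 1 point for each of the 29 antisense (filled) and 39 intergenic (open) circRNAs, with the marker shape giving the catalogue. The dashed line is the median of all 13420 circRNAs tested; the 4 antisense points above a log2 signal of 11 all span under 200 nt and come from circBase.

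The antisense members lay in 28 host genes on 15 chromosomes and the intergenic members on 17 chromosomes. RefSeq gave a single strand for the host of 22 antisense members, and in 22 of the 22 it was the strand opposite the circle. For the circles of Muc4, Kansl1l, Gm22805 and AB349811, RefSeq also had a long noncoding RNA gene on the circle's own strand. These genes were Gm34825, Gm46093, Gm31557 and Gm46017. The positions in the table placed 24 of the 27 antisense members whose host gene RefSeq holds on the same chromosome wholly inside that gene. Among the 16 short antisense members, 4 overlapped a gene of a small RNA: the Cop1 pair, mmu_circRNA_19500 in Sf3b3, a splicing factor gene, which crosses Snord111, and mmu_circRNA_19340 in Ppp1r8, which crosses the guide RNA gene Gm22767. Both circles of the Cop1 pair lie at the same locus. Of the 48 other circRNAs with a span under 200 nt in the table, 4 overlapped a small RNA gene. By class these were 3 of 18 intronic, 1 of 17 exonic and 0 of 13 sense overlapping circRNAs.

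Of the 39 sites called intergenic, 24 (61.5%) overlapped a gene in RefSeq. A protein-coding gene lay at 10 sites, a long noncoding RNA gene with no coding gene at 12 and a pseudogene at 2, and 15 sites had no gene. The circle was wholly inside a gene at 15 of the 24, and on the same strand as a gene at 13 of the 14 whose strand was known. Among them are circles inside Tenm3, a teneurin of synaptic adhesion (mmu_circRNA_42889), inside Muc16, a membrane mucin (mmu_circRNA_43806), and inside Ankrd31, a gene of meiotic recombination (mmu_circRNA_26795 and mmu_circRNA_26797). At 22 of the 24 sites an end of the circle lay inside a RefSeq gene, so the type in the table and these gene models differ there; at the other 2 the circle reached past both sides of the gene.

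Mean probe signal ran from 2.51 to 12.63 in antisense members and from 2.59 to 10.76 in intergenic members, beside 2.14 to 17.20 over all circRNAs tested. The median of the members' mean log2 signals was 6.06 for antisense circRNAs, with quartiles of 4.61 and 7.63, and 5.71 for intergenic circRNAs, with quartiles of 4.42 and 7.23, beside 5.67, 4.45 and 7.35 for all circRNAs tested. The signal of a probe depends on its sequence as well as on the RNA, so these values describe the probes and rank no RNA amounts. The highest antisense signals were 12.63 for mmu_circRNA_016773 of Tubb5, a beta-tubulin, 11.56 for mmu_circRNA_005985 of Canx, the chaperone calnexin of the endoplasmic reticulum, and 11.50 for mmu_circRNA_015474 of Eif3a, a subunit of a translation initiation factor. With mmu_circRNA_010498 of Dstn at 11.32, these were the 4 antisense members above 11, a level passed by 3.11% of all circRNAs tested and by 0 intergenic members. Their spans were 80, 67, 60 and 117 nt. The highest intergenic signals were 10.76 for mmu_circRNA_43806 inside Muc16, 10.41 for mmu_circRNA_29716 and 9.98 for mmu_circRNA_27895. RefSeq has no gene at the site of mmu_circRNA_29716, and the nearest coding genes there are Igsf11 and Lsamp, which encode neural adhesion proteins.

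At the low end, 6 antisense and 8 intergenic members had a mean under 4, beside 17.0% of all circRNAs tested. The scanner software marks a spot as well above background from its signal and the local background. On all 6 arrays this mark was given to 25 antisense members (86.2%) and 33 intergenic members (84.6%), beside 88.6% of all. By array, in the order of the replicate numbers, 27, 28 and 28 antisense members were marked in WT samples, against 25, 29 and 28 in APP/PS1 samples. For intergenic members the counts were 36, 39 and 39 in WT samples, against 34, 38 and 38 in APP/PS1 samples. In both classes the lowest count was on the array of APP/PS1 replicate 1, which like WT replicate 1 lay in column 1 of the slide. Over all circRNAs tested the lowest share was also on that array, at 92.3%. It was 92.8% on WT replicate 1 and from 98.0% to 99.9% on the other arrays. All 10 members that missed the mark on any array had a mean signal under 4.

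**Figure D2:**
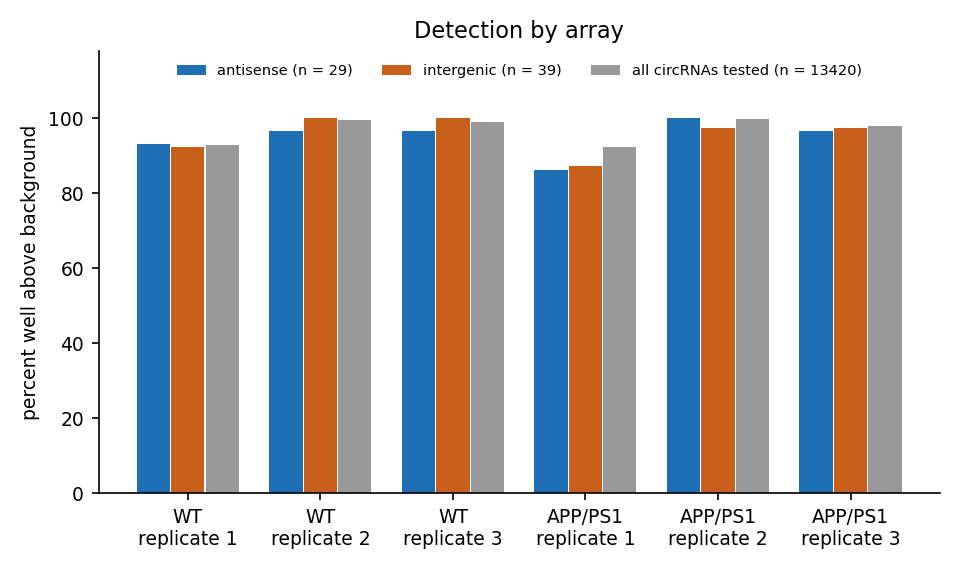
Percent of circRNAs well above background on each of the 6 arrays, for 29 antisense circRNAs, 39 intergenic circRNAs and all 13420 tested. The bars of APP/PS1 replicate 1 are the lowest for each class, at 86.2% and 87.2%, and for all circRNAs tested, at 92.3%.

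The main comparison asked whether either class differed between APP/PS1 and WT microglia. A circRNA was counted as past the thresholds at a fold change of 1.5 with an unadjusted limma p of 0.05, and 726 of 13420 (5.41%) were. Among the members, 0 of 29 antisense and 2 of 39 intergenic circRNAs passed. In the upward direction this was 0 and 1, beside 3.15% of all circRNAs, and in the downward direction 0 and 1, beside 2.26%. The balance of these shares depended on scaling and on single arrays: of the circRNAs past the thresholds, 58.3% were higher in APP/PS1, against 44.0% with 75th percentile scaling, 41.1% without APP/PS1 replicate 1 and 36.9% without both arrays of slide column 1. At an unadjusted p of 0.05 with no limit on fold change, 2 antisense and 6 intergenic members passed, beside 17.8%. The 3 samples of one genotype lay wholly to one side of the other in 3 antisense and 9 intergenic members, beside 25.1%. No member passed an adjusted p of 0.05, and neither did any other circRNA (0.0%). The p-values set each difference against the spread between these samples, with each circRNA's spread drawn toward that of all circRNAs tested. In bulk samples fewer cells of a type and less RNA in each cell cannot be told apart.

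Differences were small in both classes. The median difference was 0.03 for antisense members and −0.04 for intergenic members, beside −0.01 for all circRNAs tested. The sign of the intergenic median turned with the median spot signal without background subtraction (0.01), without APP/PS1 replicate 1 (0.05) and without both arrays of slide column 1 (0.09), the last an alternative chosen after seeing the data; the antisense median turned with the median spot signal (−0.002). The quartiles of the differences were −0.10 and 0.18 for antisense and −0.17 and 0.07 for intergenic members, beside −0.18 and 0.16 for all. The difference was positive for 18 and negative for 11 antisense members, and positive for 18 and negative for 21 intergenic members (62.1% and 46.2% positive, beside 48.0% of all circRNAs tested). The sign turned under at least 1 alternative in 13 antisense and 21 intergenic members. In the deposited log2 table the difference was closer to 0 in 20 antisense and 21 intergenic members. The median SD between replicates was 0.18 in WT and 0.18 in APP/PS1 for antisense members, and 0.15 and 0.18 for intergenic members, about the size of the median absolute difference of 0.15 and 0.16.

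**Figure D3:**
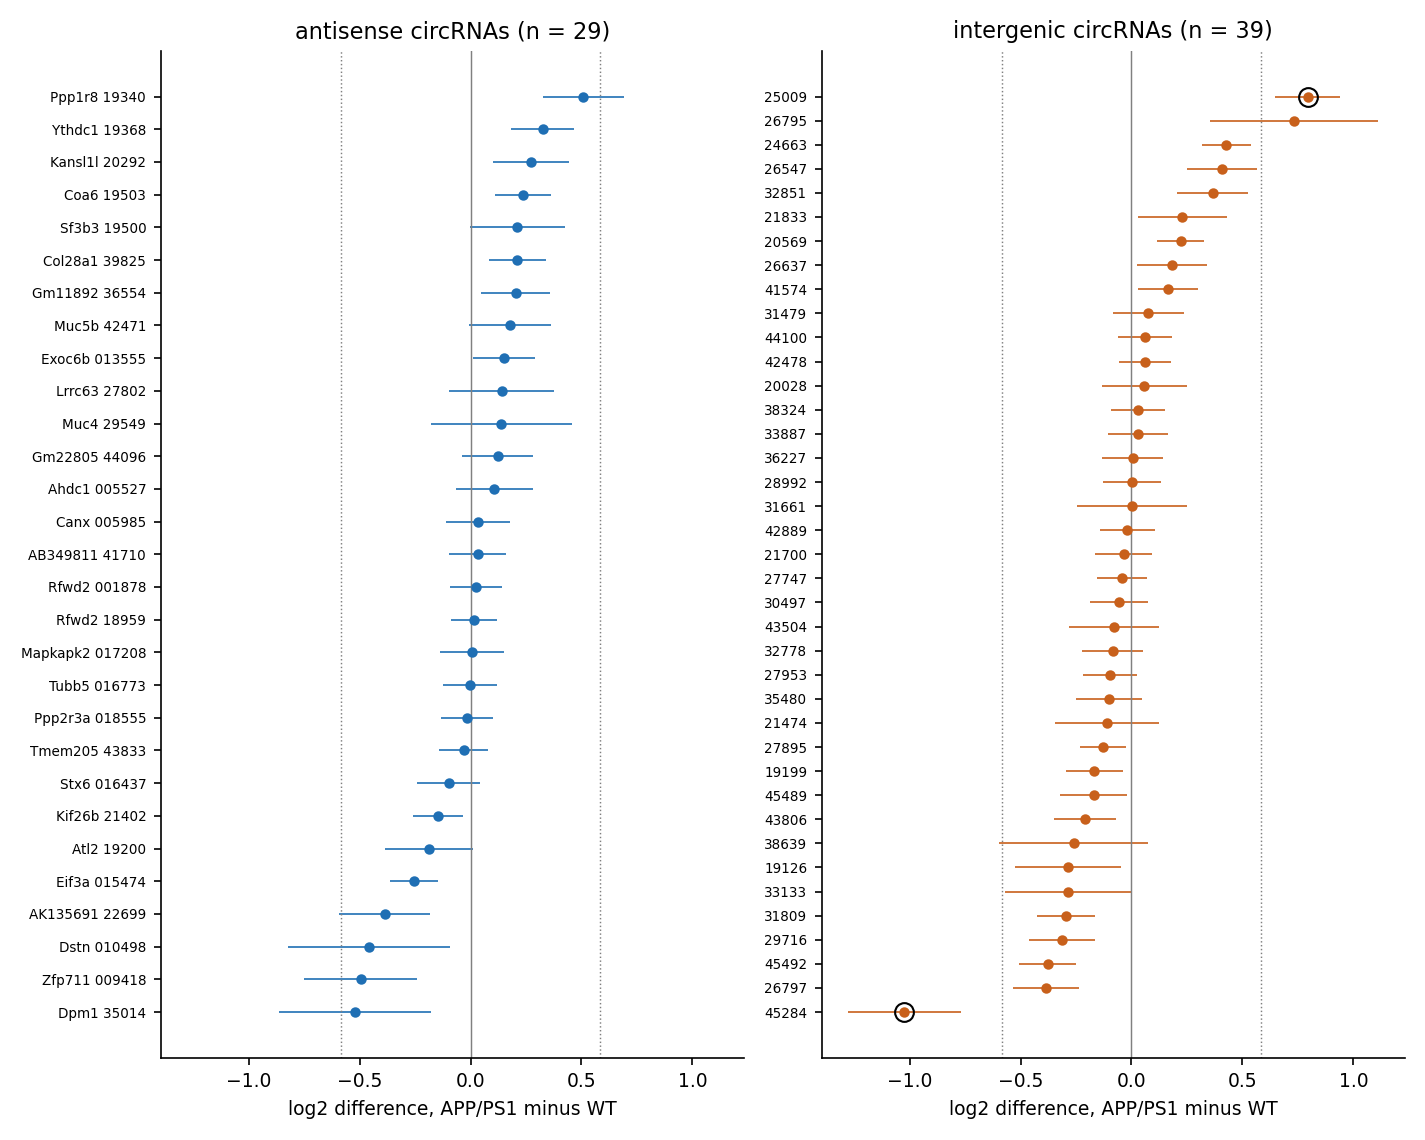
Log2 difference, APP/PS1 minus WT, of each of the 29 antisense (left, with host gene) and 39 intergenic circRNAs (right), labelled with the number of the circRNA name; points are the limma estimates and bars their SE, 3 samples in each group. Dotted lines mark a fold change of 1.5 and black rings the 2 members past the thresholds, mmu_circRNA_25009 at 0.79 and mmu_circRNA_45284 at −1.02, both intergenic.

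The antisense hosts were read by function. In RNA processing and translation, with 4 circRNAs, 0 passed the thresholds, and the differences ran from −0.26 to 0.51. In the main fit 2 of these 4 passed an unadjusted p of 0.05, beside 17.8% of all circRNAs tested. They were the 2 among the 29 antisense members that did. Whether the groups by function differ was not tested. Ppp1r8 encodes a nuclear regulator of protein phosphatase, and its antisense circle mmu_circRNA_19340, chr4:132838411-132838546, gave 4.60, 4.20 and 4.27 in WT samples and 4.61, 4.81 and 5.17 in APP/PS1 samples. Every APP/PS1 sample was above every WT sample, though APP/PS1 replicate 1 and WT replicate 1 were nearly equal. The difference was 0.51 (95% confidence interval 0.08 to 0.93, adjusted p = 0.214), under the fold change of 1.5. It passed both thresholds without WT replicate 1 (0.63) and without APP/PS1 replicate 1 (0.63), and not without APP/PS1 replicate 3 (0.36).

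The antisense circle of Eif3a, mmu_circRNA_015474, chr19:60766418-60766477, was the shortest member. It gave 11.73, 11.58 and 11.56 in WT samples and 11.37, 11.32 and 11.42 in APP/PS1 samples. All 3 APP/PS1 samples were below all WT samples, with a difference of −0.26 (95% confidence interval −0.51 to −0.003, adjusted p = 0.277). Neither circle passed an unadjusted p of 0.05 under every alternative. The Ppp1r8 difference was 0.30 in the deposited log2 table, 0.26 with the median spot signal and 0.17 with normexp. It did not pass with 75th percentile scaling (0.42), with the methods' t-test or the replicate block, or without WT replicate 2, WT replicate 3 or APP/PS1 replicate 3. The Eif3a difference was −0.14 in the deposited table, −0.15 with the median spot signal, −0.14 with normexp and −0.16 with median scaling. Of these it passed with normexp only, and it did not pass with 75th percentile scaling (−0.23), with the replicate block or with any one sample left out. The antisense circle of Ythdc1, a nuclear reader of methylated adenosine in RNA, was mmu_circRNA_19368 and gave 7.76, 7.41 and 7.42 in WT samples and 7.74, 7.83 and 7.996 in APP/PS1 samples. WT replicate 1 was above APP/PS1 replicate 1, so the groups overlapped, and the difference was 0.32 (adjusted p = 0.296). This circle passed an unadjusted p of 0.05 in the deposited log2 table (0.28), with normexp (0.24), with median scaling (0.40) and without WT replicate 1 (0.45). It did not with 75th percentile scaling (0.33), the methods' t-test or the replicate block. Its difference ranged from 0.24 to 0.51 over the alternatives, and it passed both thresholds in 0 of 19. The circle in Sf3b3 had a difference of 0.21 with overlapping groups, which was 0.02 without WT replicate 1, 0.37 without APP/PS1 replicate 1, 0.09 in the deposited log2 table and 0.05 with normexp.

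The 4 circles of signalling and protein turnover were the flattest group, with differences from −0.02 to 0.02 and none past the thresholds. The Cop1 pair shown above gave 7.26, 7.16 and 7.21 in WT and 7.15, 7.25 and 7.28 in APP/PS1 samples for mmu_circRNA_18959. For mmu_circRNA_001878 the values were 7.54, 7.30 and 7.33 in WT and 7.47, 7.45 and 7.33 in APP/PS1 samples. The differences of the pair were 0.02 and 0.02, with 95% confidence intervals of −0.23 to 0.26 and −0.25 to 0.30, and the pair shares its sequence, so it counts as 1 observation rather than 2. The antisense circle of Mapkapk2, a kinase of the stress and cytokine response, was mmu_circRNA_017208 and gave a difference of 0.01 (95% confidence interval −0.33 to 0.35).

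Among the 5 circles of the endoplasmic reticulum and membrane traffic, 0 passed, with a range from −0.52 to 0.15. The lowest was mmu_circRNA_35014 of Dpm1, which makes a mannose donor for glycosylation, at 3.10, 1.99 and 3.23 in WT samples and 1.93, 2.64 and 2.19 in APP/PS1 samples. It was well above background on 3 of 6 arrays, 2 WT and 1 APP/PS1, and its groups overlapped. Its difference of −0.52 moved with single samples, background correction, scaling and filter. With 75th percentile scaling it was −0.85, with median scaling −0.78 and with no filter −0.69. It was −0.96, past both thresholds, without WT replicate 2, but −0.33 without WT replicate 1, −0.30 without WT replicate 3, −0.12 in the deposited log2 table, −0.13 with the median spot signal and −0.04 with normexp. The antisense circle of Canx gave 11.36, 11.57 and 11.68 in WT samples and 11.36, 11.66 and 11.70 in APP/PS1 samples, a difference of 0.03 (95% confidence interval −0.30 to 0.37).

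The 3 cytoskeletal circles had differences from −0.46 to −0.003, and 0 passed. The antisense circle of Tubb5 gave 12.64, 12.61 and 12.64 in WT samples and 12.83, 12.54 and 12.52 in APP/PS1 samples. Its difference was −0.003 (95% confidence interval −0.29 to 0.29). The circle of Dstn, destrin, which severs actin filaments, gave 11.34, 11.36 and 11.93 in WT samples and 11.81, 11.14 and 10.31 in APP/PS1 samples. The groups overlapped and the difference of −0.46 (adjusted p = 0.565) moved with single samples. It was −0.07 without APP/PS1 replicate 3, −0.26 without WT replicate 3 and −0.82, past both thresholds, without APP/PS1 replicate 1.

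The 3 circles of mucin and matrix genes had differences from 0.14 to 0.21 and 0 passed, and the direction did not hold under every alternative. Of these, mmu_circRNA_29549 of the membrane mucin Muc4 was well above background on 3 of 6 arrays, 1 WT and 2 APP/PS1. Its difference was −0.07 with 75th percentile scaling and −0.21 without WT replicate 3, and the lowest over the alternatives for the circle of Muc5b, a secreted mucin, was −0.11. The 6 circles of other named genes ranged from −0.50 to 0.27, with 0 past the thresholds. The low value was that of mmu_circRNA_009418 in Zfp711, a zinc finger gene, at 4.35, 4.21 and 4.15 in WT samples and 3.13, 4.05 and 4.06 in APP/PS1 samples. APP/PS1 samples were all lower, but APP/PS1 replicate 1 was the only one far below, and its spot was not well above background; without it the difference was −0.18, and in the deposited log2 table it was −0.18 with all samples. The 4 circles of models without a gene name ranged from −0.39 to 0.20 and 0 passed, with mmu_circRNA_22699 of AK135691 the lowest in the main fit. The difference of that circle was −0.19 without WT replicate 1, −0.54 without WT replicate 3, −0.20 in the deposited log2 table and −0.11 with normexp. The longest antisense circle, mmu_circRNA_41710 of AB349811 at 66051 nt, had a difference of 0.03.

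The intergenic member with the smallest p was mmu_circRNA_25009, chr12:43998336-44041650 on the minus strand, a span of 43315 nt. RefSeq has no gene there, and the nearest coding genes are Immp2l, a mitochondrial peptidase gene 2043 kb to one side, and Dnajb9, a chaperone gene of the endoplasmic reticulum 164 kb to the other. Its signal was 2.95, 3.19 and 3.29 in WT samples and 3.78, 3.90 and 4.14 in APP/PS1 samples. All 3 APP/PS1 samples were above all 3 WT samples, and the spot of WT replicate 1 was not well above background. The difference was 0.79 (95% confidence interval 0.45 to 1.14), a fold change of 1.73, with an adjusted p of 0.124. In the deposited log2 table the difference was 0.29, with the median spot signal 0.29 and with normexp and an offset of 50 it was 0.14, each under the fold threshold.

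The other was mmu_circRNA_45284, chr9:121483238-121485337 on the minus strand, a span of 2100 nt. It lies between Trak1, an adaptor for moving mitochondria, 8.3 kb away, and Cck, the gene of the neuropeptide cholecystokinin, 4.5 kb away. Its signal was 3.40, 3.02 and 2.90 in WT samples and 2.63, 1.77 and 1.84 in APP/PS1 samples. It was well above background on 3 WT arrays and on 0 APP/PS1 arrays, so the fitted difference of −1.02 (adjusted p = 0.129) rests on APP/PS1 values that were not told from background. With each APP/PS1 value raised, where it was lower, to the lowest signal marked as well above background on that array, their mean was 2.57. The WT mean was 3.11, so these means were 1.45-fold apart on this background-subtracted scale. This ratio holds for this scale alone. It leaves out the spread between samples, and the unmarked APP/PS1 replicate 1 kept its own value, so it is no lower limit. The 95% confidence interval of the fitted difference, −1.62 to −0.43, rests on the same unmarked APP/PS1 values. The fitted difference was −0.25 in the deposited log2 table, −0.23 with the median spot signal and −0.11 with normexp and an offset of 50, each under the fold threshold.

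**Figure D4:**
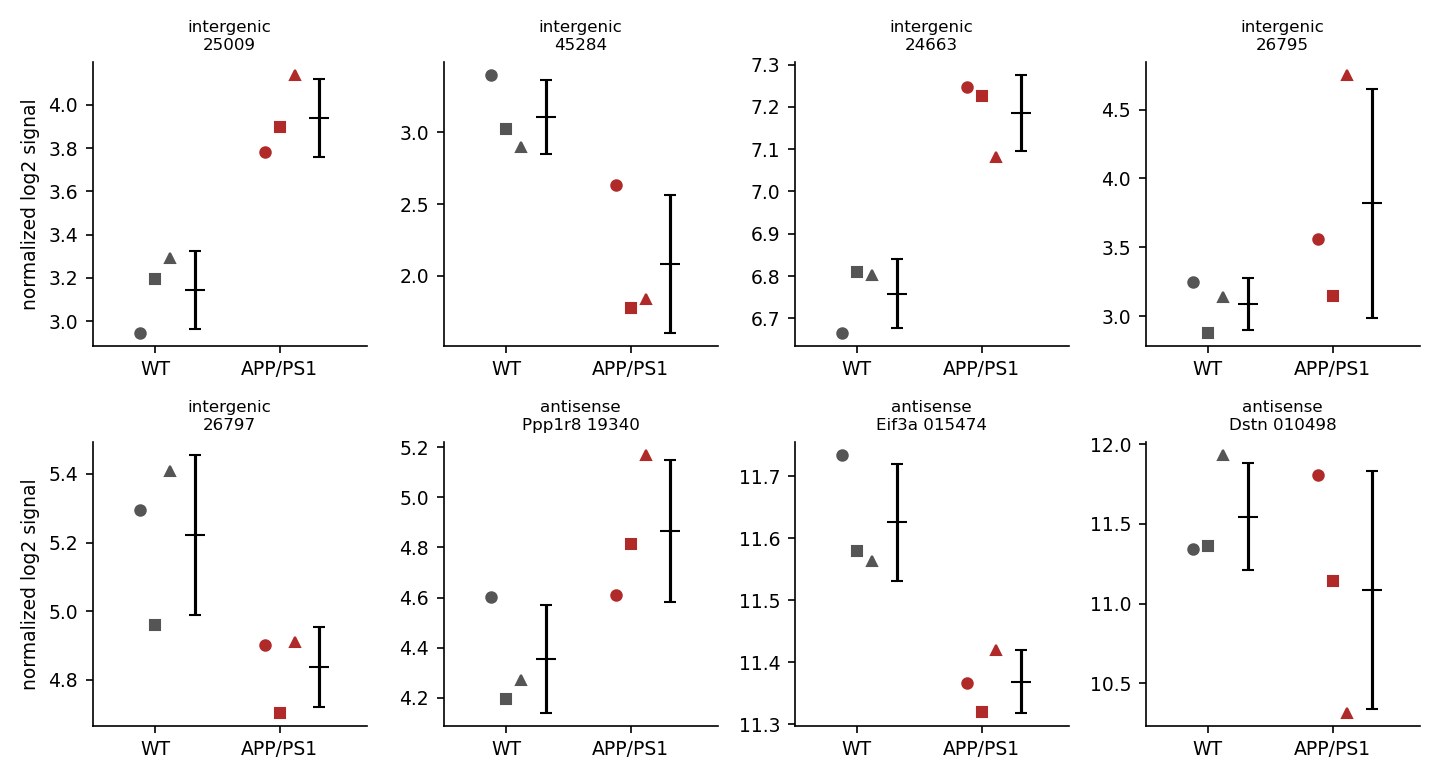
Normalized log2 signal of 5 intergenic and 3 antisense circRNAs in each WT (grey) and APP/PS1 (red) sample, with circles, squares and triangles for replicates 1, 2 and 3; the dash and bar beside the points give the mean and SD, n = 3, and each panel has its own axis, which does not start at 0. The groups overlap for mmu_circRNA_26795 and for the circle of Dstn, and are apart for the others.

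Below the fold threshold, mmu_circRNA_24663, chr12:6045162-6095761, had the smallest p. It lies inside the long noncoding RNA gene Gm32576 and gave 6.67, 6.81 and 6.80 in WT samples and 7.25, 7.23 and 7.08 in APP/PS1 samples. The lowest APP/PS1 sample was above the highest WT sample, and the spread within each genotype was under 0.10 (SD of 0.08 in WT and 0.09 in APP/PS1). The difference was 0.43 (95% confidence interval 0.17 to 0.69, adjusted p = 0.138). It was 0.43 in the deposited log2 table, 0.44 with the median spot signal and 0.35 with normexp. Over the alternatives it ranged from 0.35 to 0.48, and it passed both thresholds in 0 of 19. The gene-free mmu_circRNA_26547, between Pcsk1, a prohormone convertase gene, and Ell2, a transcription elongation factor gene, gave 6.81, 6.55 and 6.68 in WT samples and 7.29, 7.17 and 6.80 in APP/PS1 samples. APP/PS1 replicate 3 lay just under WT replicate 1, so the groups overlapped, with a difference of 0.41 (adjusted p = 0.243). The longest member, mmu_circRNA_20569 at 86680 nt inside Gm7133, had a difference of 0.22 (0.12 in the deposited log2 table) and the shortest intergenic member, mmu_circRNA_33887 at 294 nt inside Gm50595, one of 0.03. The circle inside Tenm3 had a difference of −0.02. Inside long noncoding RNA genes, mmu_circRNA_32851 (Gm34459) had a difference of 0.37 and mmu_circRNA_31809 (Gm35887) one of −0.29.

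In each intergenic pair that shares an end, the circles were on the same strand. In Ankrd31, mmu_circRNA_26795 (chr13:96866331-96879123) and mmu_circRNA_26797 (chr13:96872637-96879123) end at the same base, with starts 6306 nt apart. The longer circle gave 3.25, 2.88 and 3.14 in WT samples and 3.56, 3.14 and 4.75 in APP/PS1 samples. The shorter gave 5.30, 4.96 and 5.41 in WT samples and 4.90, 4.70 and 4.91 in APP/PS1 samples. Their differences were 0.73 (adjusted p = 0.368) and −0.38 (adjusted p = 0.245), opposite in sign; the difference between the circles was not tested. In the deposited log2 table they were 0.24 and −0.07. The longer circle's value rested on APP/PS1 replicate 3, without which it was 0.27; without APP/PS1 replicate 2 it was 1.09, past both thresholds.

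On chromosome X, mmu_circRNA_45492 and mmu_circRNA_45489, both on the minus strand, share the end with the higher coordinate. Their other ends lie 1880 nt apart, with no gene at the site. The shorter, mmu_circRNA_45492, gave 5.47, 5.25 and 5.55 in WT samples and 4.92, 5.15 and 5.07 in APP/PS1 samples, with all 3 APP/PS1 samples below all WT samples. The longer gave 4.54, 4.14 and 4.34 in WT samples and 3.99, 4.18 and 4.34 in APP/PS1 samples, and its groups overlapped. The differences were −0.38 (adjusted p = 0.201) and −0.17 (adjusted p = 0.608). In the deposited log2 table they were −0.29 and −0.007, with normexp −0.18 and −0.002, and with the median spot signal −0.27 and 0.008. The intergenic members with the highest signals had negative differences, −0.21 for mmu_circRNA_43806, −0.31 for mmu_circRNA_29716 and −0.13 for mmu_circRNA_27895, each with an adjusted p of 0.327 or more. In the deposited log2 table these were −0.02, −0.40 and −0.15. Without APP/PS1 replicate 3 that of mmu_circRNA_29716 was −0.18, and with median scaling that of mmu_circRNA_27895 was −0.03.

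The differences of the intergenic members were also laid out by what RefSeq now places at the site. The median was 0.04 for the 10 at coding genes, 0.02 for the 12 at long noncoding RNA genes, −0.09 for the 2 at pseudogenes and −0.17 for the 15 at sites without a gene. Of the 24 with a gene, 14 had a positive difference and 0 passed the thresholds; of the 15 without, 4 had a positive difference and 2 passed. Over all circRNAs tested 48.0% had a positive difference and 5.41% passed. Across the alternatives the median ranged from −0.06 to 0.13 with a gene and from −0.22 to 0.02 without, and with normexp the medians were 0.003 and −0.02. The sites without a gene also had shorter spans, with a median of 3740 nt against 15792 nt, and a lower median signal, 5.23 against 6.46, and the part of these in the differences was not tested.

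**Figure D5:**
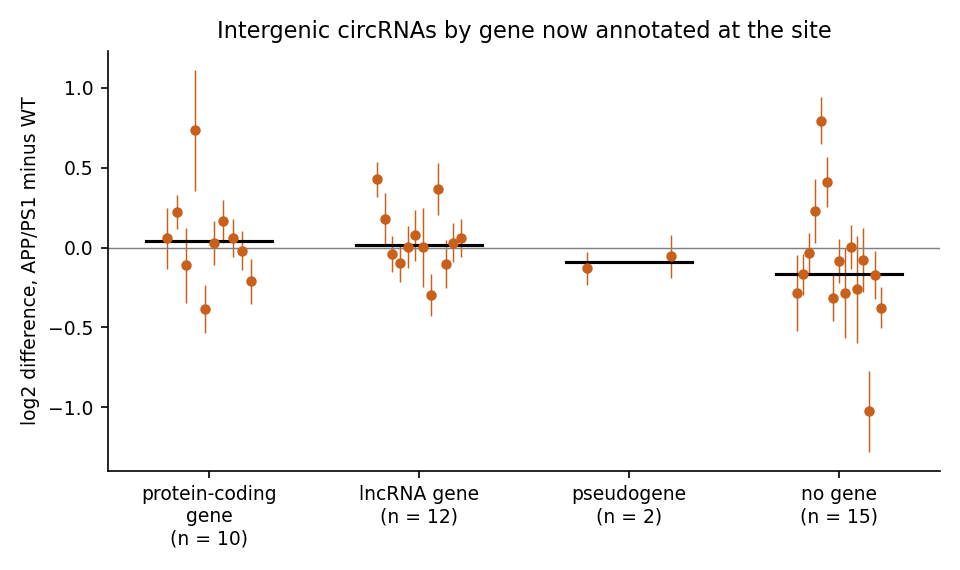
Log2 difference, APP/PS1 minus WT, of the 39 intergenic circRNAs by the kind of gene that RefSeq on GRCm38.p6 places at the site; points are the limma estimates, bars their SE and black lines the median of each kind. The medians run from 0.04 at coding genes to −0.17 at sites without a gene, where both members past the thresholds lie.

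For 2 antisense hosts the table also held an exonic circRNA of the sense strand. In Canx, the exonic mmu_circRNA_015102 gave 7.39, 7.67 and 7.45 in WT samples and 7.30, 6.81 and 6.92 in APP/PS1 samples. All 3 APP/PS1 samples were below all WT samples, with a difference of −0.50 (95% confidence interval −0.87 to −0.12, adjusted p = 0.185), beside 0.03 for the antisense circle; the difference between the 2 circles was not tested. The sense circle passed both thresholds without APP/PS1 replicate 1 (−0.64) and without both arrays of slide column 1 (−0.70). It did not pass an unadjusted p of 0.05 in the deposited log2 table (−0.33), with the median spot signal (−0.34), with normexp (−0.27), or without WT replicate 2 (−0.42), APP/PS1 replicate 2 (−0.39) or APP/PS1 replicate 3 (−0.45). In Ppp2r3a, a regulatory subunit of protein phosphatase, the exonic mmu_circRNA_44972 had a difference of 0.03 and the antisense mmu_circRNA_018555 one of −0.02.

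In these files the label of the cells could be checked only through circRNAs. Of 16 microglial marker genes, 1 had a circRNA in the table, Inpp5d, a lipid phosphatase of myeloid cells, at 7.35, 7.65 and 7.23 in WT samples and 7.46, 6.41 and 7.01 in APP/PS1 samples, a difference of −0.45 (adjusted p = 0.422). Defining markers such as Cx3cr1, P2ry12 and Tmem119 had none there. Of 17 neuronal markers, 6 had a circRNA, with 7 circRNAs in all, each well above background on all 6 arrays. Their summed signal was 9.24, 9.14 and 9.25 in WT samples and 9.11, 8.99 and 8.98 in APP/PS1 samples, with one from Gria4, a glutamate receptor gene, the highest at a mean of 7.61. This sum, which adds different probes, was lower in every APP/PS1 sample than in every WT sample. Groups were also apart for 25.1% of all circRNAs tested. The median difference of the 7 circles was −0.04, with a range from −0.53 to 0.53. Of 6 astrocyte markers, 1 had a circRNA, Slc1a2, a glutamate transporter gene, at 9.19, 9.02 and 8.85 in WT samples and 8.85, 8.97 and 9.12 in APP/PS1 samples. No marker of oligodendrocytes or endothelium was found among the host genes. In the main fit none of these marker circRNAs passed the thresholds. At an unadjusted p of 0.05 with no limit on fold change, 3 of the 7 neuronal circles passed, each with groups apart, beside 17.8% of all circRNAs: mmu_circRNA_22182 of Ank3, an ankyrin of the axon (−0.41), mmu_circRNA_003161 of Rims1, a presynaptic scaffold (−0.53), and mmu_circRNA_43694 of Gria4 (0.53). In the deposited log2 table these were −0.38, −0.39 and 0.26, and with normexp −0.31, −0.31 and 0.16. The Ank3 circle did not pass that p with the replicate block or without WT replicate 3 or APP/PS1 replicate 3, and the Gria4 circle did not without both arrays of slide column 1. The Inpp5d circle did not pass it in the main fit, but did in the deposited log2 table (−0.50) and with the median spot signal (−0.48). Past both thresholds with samples left out were the circles of Inpp5d without APP/PS1 replicate 1 (−0.70; without APP/PS1 replicate 2 it was −0.17), of Rims1 without WT replicate 2 (−0.60) or APP/PS1 replicate 1 (−0.65), and of Gria4 without WT replicate 2 (0.59), WT replicate 3 (0.60) or APP/PS1 replicate 3 (0.64). Without both arrays of slide column 1 the circles of Inpp5d (−0.73), Rims1 (−0.64) and Rims2 (−0.70) passed; the last, mmu_circRNA_011266, had a difference of 0.04 in the main fit. Circles from genes of neurons and astrocytes were thus above background in the isolated cells, and the part of other cells in the members' signals was not tested.

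The arrays of one genotype also differed among themselves. Within the APP/PS1 group, replicate 1 gave the lowest value for 20 of 29 antisense (69.0%) and 24 of 39 intergenic members (61.5%), beside 46.5% of all circRNAs tested. Within the WT group, replicate 1 gave the highest value for 16 antisense and 22 intergenic members, beside 47.3% of all. The slide held all WT arrays in row 1 and all APP/PS1 arrays in row 2, so an effect of the row and an effect of genotype cannot be told apart. Without both arrays of slide column 1, 2 antisense and 3 intergenic members passed the thresholds, beside 6.94% of all circRNAs at that setting. The antisense members were those in Ppp1r8 (0.75) and Dstn (−0.92), and the additional intergenic member was mmu_circRNA_38639 (−0.85). The main difference of that circle was −0.26 (adjusted p = 0.744) with overlapping groups, it was −0.04 without APP/PS1 replicate 3, and it passed in 1 of 19 alternatives. Without APP/PS1 replicate 3, where 6.61% of all circRNAs passed, the additional intergenic member was mmu_circRNA_33133 (−0.60). Its main difference was −0.29 (adjusted p = 0.654) with overlapping groups, −0.03 without APP/PS1 replicate 1 and 0.07 without both arrays of slide column 1, and it also passed in 1 of 19 alternatives.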

How the data were processed

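CircRNA signals were measured on Agilent single-colour arrays in 3 WT and 3 APP/PS1 samples, grouped by the sample labels. Per array, the authors deposited intensity values for every spot, written by Agilent Feature Extraction 11.0.1.1 and corrected for local background in the processed signal. They also deposited other columns, quality marks of 0 or 1 for each spot. The authors deposited a log2 table as well, quantile normalized with limma, whose background correction is not stated. Types, names, positions and host genes came from the study's annotation table, held in part; circRNAs of Rn45s and Gm26917 were to be left out, and none was a member. The build of its positions is not named; it was checked against RefSeq on GRCm38.p6, where 1330 of the 1334 exonic circRNAs with a host gene found lay inside that gene, beside 184 of 1166 with the older positions in the alias column.

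Processed signals were log2 transformed, spots marked as outliers were left out, circRNAs well above background on at least 3 of 6 arrays were kept (13420 of 14236; all 68 members passed) and arrays were quantile normalized in R 4.3.3 with limma 3.58.1. The genotype difference was fitted by lmFit and eBayes, with no block, and Benjamini-Hochberg adjustment ran over 13420 circRNAs. Replicate numbers were not treated as pairs, since the correlations of deviations between arrays of 1 number were −0.25, −0.08 and −0.22. Groups of 3 against 3 allow no exact permutation p under 0.1. The members and lists were chosen with earlier results of these data known. The circRNAs named were, for each type, the 6 with the largest difference, the 3 with the highest signal, the shortest and the longest, pairs sharing an end within 1 nt, members well above background on fewer than 4 arrays, and the circles of Mapkapk2, Rfwd2, Ythdc1, Canx and Tubb5, with sense circRNAs of antisense hosts. Alternatives covered normalization, background correction, filter, test, replicate block and leaving out arrays.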

Additional observations from a re-analysis of the deposited data

How the results depend on the processing

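The count of antisense circRNAs past the thresholds stayed at 0 under each scaling, background correction, filter and test that was run, and ranged from 0 to 2 when single samples were left out. The count of intergenic circRNAs was 2 under the other scalings, the other filters and the other tests. It was 0 with the median spot signal without background subtraction, 0 with normexp and an offset of 50, 0 with the authors' processed values and 0 with the filter on all 6 arrays, which drops both members that had passed; without single samples it ranged from 2 to 3. Over all circRNAs the counts higher and lower in APP/PS1 were 197 and 90 with the median spot signal, 128 and 59 with normexp, and 214 and 104 with the authors' processed values, beside 423 and 303. With 75th percentile scaling the balance turned, with 331 higher and 422 lower. Without single samples they ranged from 355 to 540 and from 234 to 508, and the balance also turned without APP/PS1 replicate 1, with 355 higher and 508 lower. Without both arrays of slide column 1, chosen after seeing the data, 344 were higher and 587 lower, 2 antisense circRNAs passed, and the neuronal marker circle mmu_circRNA_011266 of Rims2 reversed, from 0.04 to −0.70 past both thresholds. With the methods' t-test, 282 were higher and 202 lower at their fold and unadjusted p thresholds. With the replicate block the counts over all circRNAs were 444 and 305, those of the members were 0 and 2, and the medians were 0.03 and −0.04, the same as without it. Under every alternative the median differences moved by less than the SD of the array medians within a genotype. That SD was 0.17 for antisense and 0.14 for intergenic members. Since it is larger than the median differences themselves, this does not show that their sign held, and both signs turned under some alternatives. The cause of these changes was not tested. An adjusted p under 0.05 was reached by 2 circRNAs with normexp and by 4 with the methods' t-test, none of them members, and by 0 under the other alternatives. Across alternatives the adjusted p ranged from 0.0787 to 0.35 for mmu_circRNA_25009 and from 0.0772 to 0.35 for mmu_circRNA_45284. Neither was well above background on all 6 arrays, and each genotype had 3 samples; which of these limits them was not tested.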
